A study of Mus musculus with 12 samples.

Results

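The 42 genes described here are the antiviral interferon-stimulated genes of the mouse, followed through 12 RNA-seq libraries of dissected lung tumours and lung. They were chosen by gene symbol, as genes known to be switched on by interferon that act against viruses, and were grouped by what their proteins do. No measured value and no threshold enters the list, but it was drawn up after earlier results of the same libraries had shown interferon genes high in one tumour group and low in the other. The counts and medians below that compare tumours with each other or with lung therefore describe the members and are no independent evidence of a direction. All 42 were among the 78298 gene identifiers in the count table, and all 42 were among the 22190 genes left by a filter on low counts, so no member was lost to that filter.

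Interferons are signalling proteins that cells release when sensors in the cytoplasm or in endosomes detect foreign or misplaced nucleic acid. Type I and type III interferons act through paired receptors and the kinases JAK1 and TYK2 on a transcription factor complex that holds STAT2 and IRF9 and binds an enhancer sequence called the interferon-stimulated response element (ISRE). Type II interferon, IFN-gamma, comes mainly from T and NK cells and acts at a different element (GAS). The members include the ubiquitin-like modifier ISG15 and its conjugating enzymes, proteins that bind viral RNA, enzymes that make oligoadenylate, GTPases and membrane proteins that trap virus, and the nucleic acid sensors themselves, so the pathway raises its own detectors.

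The series holds 4 groups of 3 libraries each: normal lung and tumour, from mice given either VEH or HDM (house dust mite, an allergen source, given chronically). The labels call the tumours LLC, and say that all normal lung was dissected from beside tumours, so every group comes from a tumour-bearing lung. Strain, age, sex and dose are not given in the labels used here, and VEH is not spelled out there. Libraries of the same group differed by far more than counting error, with a chi-square per gene of 30.9 to 283.8 between 2 libraries. They are therefore more than repeat sequencing of the same library. Whether they are separate mice is not stated, so each p measures only the spread between these libraries. Library names share 6 prefixes, each held by 1 tumour and 1 normal library, and 2 of the 6 join a VEH label with an HDM label: one prefix stands on tumour HDM replicate 2 together with normal VEH replicate 2, another on tumour VEH replicate 3 together with normal HDM replicate 3. The labels do not say what a prefix marks. Groups were taken from the titles, and results without those 4 libraries are given beside the main ones.

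Libraries held 20608682 to 32765364 counts. The dissected pieces matched their tissue labels in broad terms. The summed level of 7 alveolar epithelium markers ran from 17193 to 42491 CPM over the 6 normal lung libraries and from 108 to 8465 over the 6 tumours, and 6 proliferation markers ran from 497 to 1004 CPM in tumours against 27.8 to 158 in lung. Tumour HDM replicate 3 stood apart from the other tumours, with the lowest summed level of the alveolar, airway, endothelial and T and NK cell lists. CPM are counts scaled to a common library size, with edgeR's library sizes after trimmed-mean (TMM) normalisation, and CPM per kb also divides by the gene length in the deposited table.

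The start regions of the members were searched for both enhancer sequences, because they are the DNA letters that interferon-activated factors read. RefSeq promoter windows (build GRCm38.p6, 250 bases before to 50 bases after each start) were matched by symbol or synonym for 32 of the 42 members. Windows were not used here for Usp18, Oas2, Mx1, Mx2, Rigi, Dhx58, Zbp1, Rtp4, Parp9 and Parp14. The ISRE core was searched as TTTC, any 2 bases and TTTC, together with its reverse complement (GAAA, any 2 bases and GAAA), and GAS as TTCNNNGAA, which reads the same on both strands. The stretches of 5 members are shown, as the 200 bases before the start, read 5′ to 3′ on the gene's own strand with every ISRE core match in capitals: 4 that hold matches and come from different functional groups, and Ube2l6, which holds none and had the smallest adjusted p of all members between the tumour groups.
Isg15: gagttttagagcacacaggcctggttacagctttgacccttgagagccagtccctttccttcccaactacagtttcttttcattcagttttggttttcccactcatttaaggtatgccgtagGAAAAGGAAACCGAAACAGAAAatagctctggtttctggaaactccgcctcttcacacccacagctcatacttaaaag
Ifit1: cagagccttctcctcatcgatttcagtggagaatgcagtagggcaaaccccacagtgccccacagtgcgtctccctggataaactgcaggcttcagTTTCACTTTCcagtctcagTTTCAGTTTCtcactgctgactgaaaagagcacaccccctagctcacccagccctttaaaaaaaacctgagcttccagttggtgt
Rsad2: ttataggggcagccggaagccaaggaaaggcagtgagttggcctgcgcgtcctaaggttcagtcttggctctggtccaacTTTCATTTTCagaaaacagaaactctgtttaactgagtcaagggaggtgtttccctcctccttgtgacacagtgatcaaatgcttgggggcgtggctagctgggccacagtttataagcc
Bst2: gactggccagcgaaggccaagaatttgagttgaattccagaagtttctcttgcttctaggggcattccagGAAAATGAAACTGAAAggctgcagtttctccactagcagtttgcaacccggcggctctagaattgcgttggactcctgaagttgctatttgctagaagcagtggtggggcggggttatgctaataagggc
Ube2l6: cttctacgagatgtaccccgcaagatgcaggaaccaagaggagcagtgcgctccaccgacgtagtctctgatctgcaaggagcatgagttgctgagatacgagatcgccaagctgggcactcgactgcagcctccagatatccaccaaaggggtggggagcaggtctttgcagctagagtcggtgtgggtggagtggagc

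These stretches lie at chr4:156200819-156201018 (minus strand) for Isg15, chr19:34640689-34640888 (plus strand) for Ifit1, chr12:26456453-26456652 (minus strand) for Rsad2, chr8:71537473-71537672 (minus strand) for Bst2 and chr2:84798628-84798827 (plus strand) for Ube2l6. In Isg15 a run of 3 overlapping matches spans positions -78 to -57, counted from -1 at the last base before the start. Ifit1 holds 2 separate matches and Rsad2 holds 1. Bst2 holds 2 that overlap each other, and the one further from the start also overlaps a GAS match. The ISRE core was present in the window of 13 of the 32 members, which is 40.6%, and in 1079 of all 27025 genes of the table, which is 3.99%. It lay upstream of the start in Isg15, Ifit1, Ifit3, Ifit3b, Oas1a, Oas3, Rsad2, Ddx60 and Bst2, and downstream of it in Ifih1, Eif2ak2 and Ifitm3. Trim30a has 2 windows in the table, with the match upstream of the start in one and downstream of it in the other. GAS letters were present in 6 of the 32 members, 18.8%, against 9.55% of all genes. A match describes letters and not a site of binding, and a window without one says only that these letters are absent there.

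The members as a whole were at their highest in VEH tumours. Their summed level was 4428, 2285 and 3600 CPM in VEH tumour replicates 1, 2 and 3, 1737, 1306 and 911 CPM in the HDM tumours, 1525 to 1599 CPM in VEH lung and 1397 to 1672 CPM in HDM lung. The VEH tumours therefore lay above every other library, while the HDM tumours spread on both sides of normal lung. In bulk tissue such as this, fewer cells of a type and less RNA per cell cannot be told apart. VEH tumours had the highest group mean for 40 of the 42 members, the exceptions being Cmpk2, highest in VEH lung, and Ifih1, highest in HDM lung. The lowest group mean was in HDM tumours for 20 members, in VEH lung for 12 and in HDM lung for 10.

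**Figure D1:**
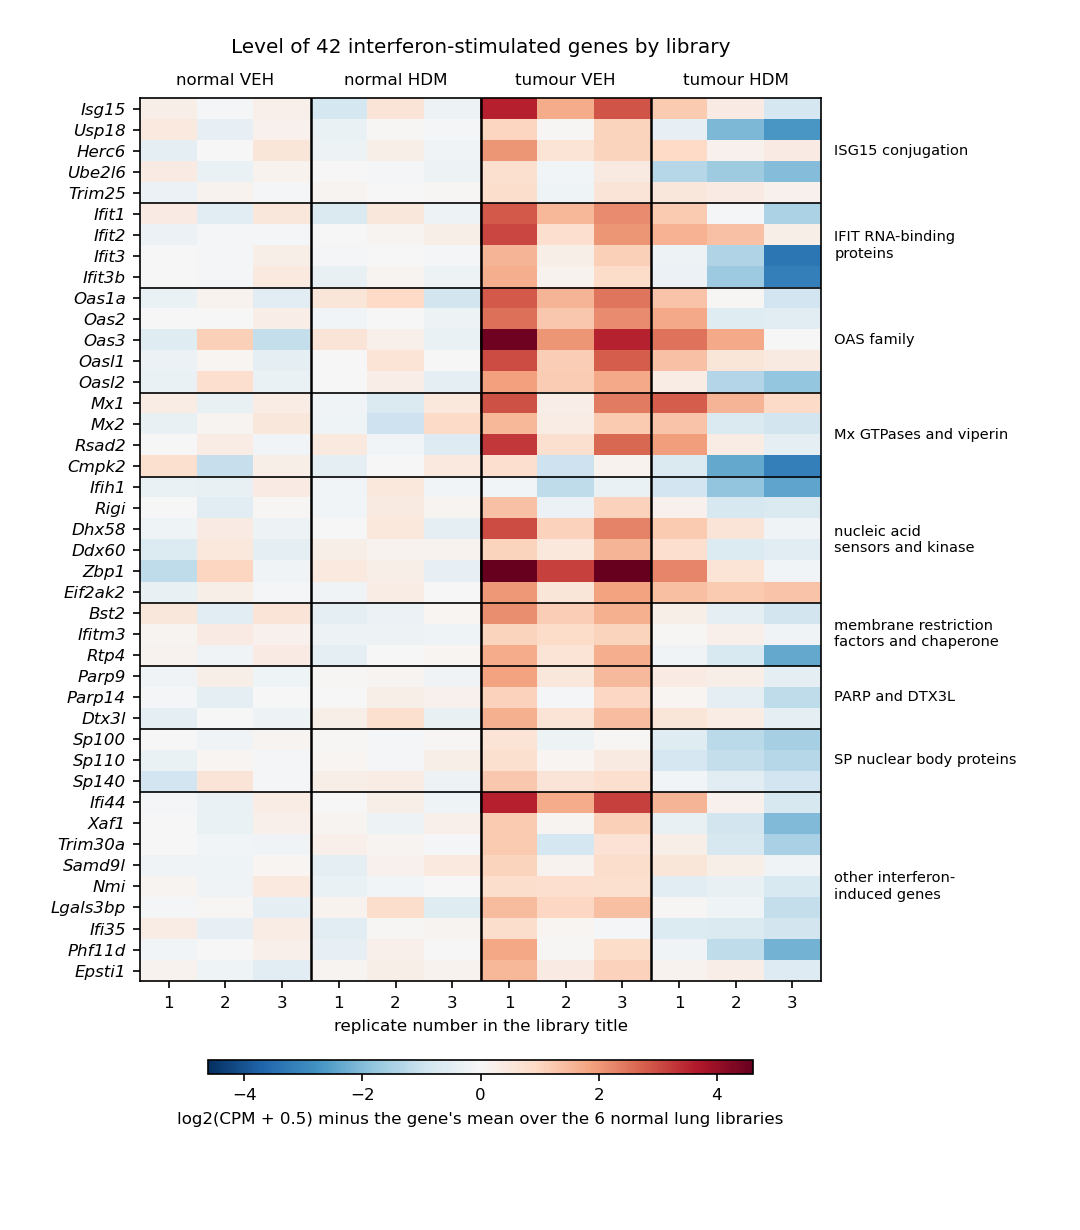
Each row is 1 of the 42 genes, grouped by function, and each column is 1 of the 12 libraries. Colour gives log2(CPM + 0.5) minus the gene's mean over the 6 normal lung libraries, so red is above lung and blue below. VEH tumour replicates 1 and 3 are red over most rows, and HDM tumour replicate 3 is blue over most.

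Between the tumour groups, all 42 members had a negative log2 fold change (HDM tumour minus VEH tumour), where 52.7% of all 22190 genes did. The median was -1.50 over the members and -0.03 over all genes, and the range ran from -3.01 for Zbp1 to -0.09 for Trim25. The groups did not overlap, with all HDM tumours below all VEH tumours, for 24 of 42 members, where the same held for 10.7% of all genes. The reverse held for 0 members, against 11.3% of all genes. In edgeR's quasi-likelihood test with Benjamini-Hochberg adjustment over all 22190 genes, 4 members fell and 0 rose, against 0.0856% of all genes that fell and 0.00901% that rose. The 4 are Ube2l6, Ifitm3, Sp110 and Nmi. Unadjusted p was below 0.05 for 34 members, all lower, against 11.3% of all genes, and DESeq2's Wald test, as an alternative, called 26, against 5.89% of all genes. These calls rest on all libraries being present: leaving out any 1 library other than normal VEH replicates 1 and 2 left 0 of the 4, leaving out normal VEH replicate 1 left 1, and leaving out the 4 libraries of mixed prefixes left 0, with a median of -1.42.

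**Figure D2:**
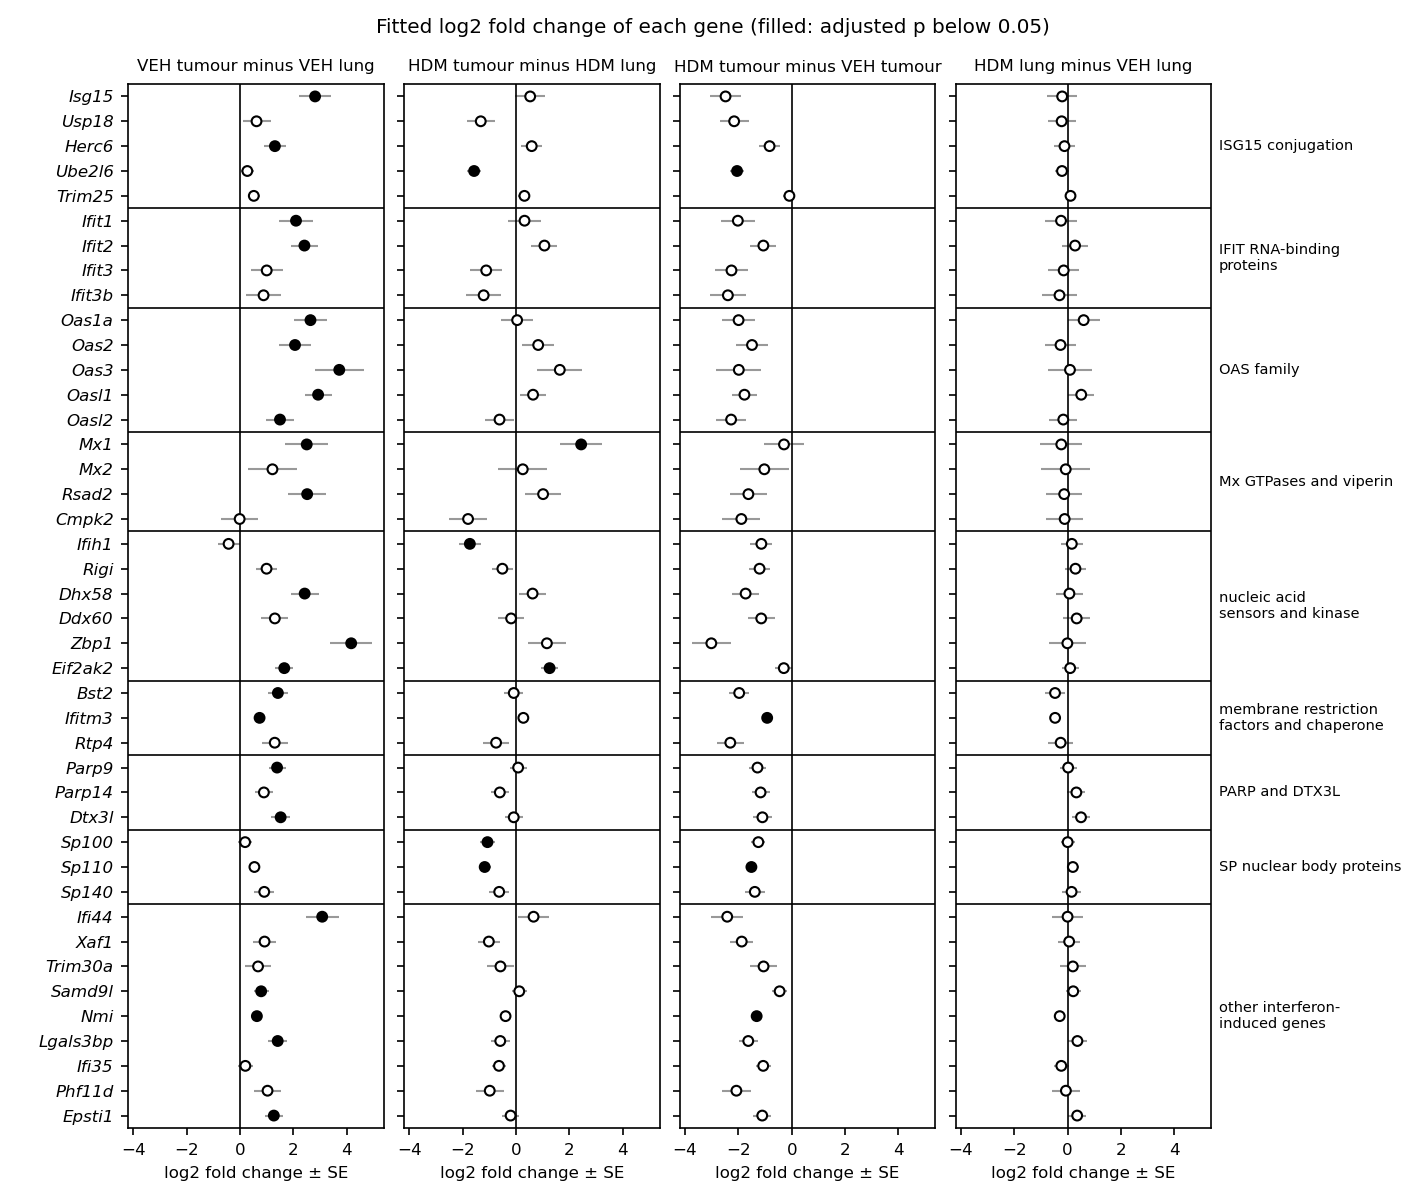
Fitted log2 fold change of each gene with its standard error in the 4 comparisons of 2 groups, filled where the adjusted p was below 0.05. In the comparison of HDM with VEH tumours all 42 points lie left of 0, and in the comparison of the 2 lung groups the points lie between -0.47 and 0.60.

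ISG15 is a small ubiquitin-like protein that is joined to other proteins by the E2 enzyme UBE2L6 and the E3 ligase HERC6, and removed by USP18, which also damps interferon receptor signalling. Isg15 read 11.9, 9.41 and 11.5 CPM in VEH lung, 5.41, 14.9 and 8.14 in HDM lung, 121, 33.2 and 76.3 in VEH tumours and 22.9, 12.8 and 5.52 in HDM tumours. The VEH tumours lay above all lung libraries and above all HDM tumours, and the HDM tumours overlapped lung. Its log2 fold change was 2.81 ± 0.60 (SE) for VEH tumour minus VEH lung and -2.48 ± 0.59 for HDM tumour minus VEH tumour.

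Ube2l6 behaved differently from its partner. It read 66.1, 40.9 and 56.5 CPM in VEH lung, 50.3, 48.2 and 42.8 in HDM lung, 84.5, 45.9996 and 67.04 in VEH tumours and 19.7, 15.7 and 12.3 in HDM tumours. VEH tumours overlapped VEH lung, but every HDM tumour lay below every other library. It fell between the tumour groups by 2.05 ± 0.26 on the log2 scale (adjusted p = 0.0274) and between HDM lung and HDM tumour by 1.57 ± 0.26 (adjusted p = 0.000777). Usp18 had the same arrangement without passing the test, at 66.1, 34.4 and 67.8 CPM in VEH tumours and 25.4, 7.51 and 4.82 in HDM tumours against 25.7 to 46.0 CPM over the 6 lung libraries.

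Herc6 read 5.34, 7.08 and 10.7 CPM in VEH lung, 6.06, 8.797 and 6.48 in HDM lung, 30.8, 11.3 and 15.2 in VEH tumours and 14.3, 8.44 and 9.52 in HDM tumours. VEH tumours lay above VEH lung, and the 2 tumour groups overlapped. Trim25, an E3 ligase that activates the sensor RIG-I, read 65.9, 88.9 and 73.2 CPM in VEH lung, 84.9, 79.4 and 81.6 in HDM lung, 139, 69.3 and 118 in VEH tumours and 114, 102 and 90.9 in HDM tumours. Its HDM tumours lay above all lung libraries and inside the range of the VEH tumours, with a difference between tumour groups of -0.09 ± 0.22 that changed sign when only library size was used for scaling or when VEH tumour replicate 1 or HDM tumour replicate 3 was left out.

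The IFIT proteins bind viral RNA that lacks the host cap modification and block its translation. Their 4 genes lie within 1 stretch of chromosome 19, from 34527932 to 34632174 (GRCm39). Ifit1 read 138, 56.6 and 87.2 CPM in VEH tumours and 44.5, 18.3 and 6.702 in HDM tumours, against 25.1, 13.5 and 27.3 in VEH lung and 11.8, 27.6 and 15.98 in HDM lung. Only the VEH tumours stood clear of the other groups. Ifit2 read 145, 29.5 and 71.4 CPM in VEH tumours and 52.7, 44.3 and 20.6 in HDM tumours, against 13.96, 15.7 and 16.4 in VEH lung and 16.96, 18.6 and 20.4 in HDM lung. Here the HDM tumours also lay above every lung library, and they overlapped the VEH tumours.

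Ifit3, which stabilises IFIT1 on RNA, had the highest level per length of the family (36.0 CPM per kb over all libraries). It read 165, 66.7 and 118 CPM in VEH tumours and 47.3, 20.8 and 5.004 in HDM tumours, against 55.8, 52.5 and 66.4 in VEH lung and 51.5, 54.8 and 51.4 in HDM lung. All VEH tumours lay above all lung libraries and all HDM tumours below them, an arrangement shared only with Nmi among the members. Ifit3b read 45.2, 15.7 and 25.1 CPM in VEH tumours and 11.3, 4.03 and 1.12 in HDM tumours, against 14.05, 13.4 and 19.2 in VEH lung and 10.8, 15.3 and 11.7 in HDM lung, with HDM tumour replicate 3 lowest of all. Ifit3b and Ifit3 are near copies: 27.2% and 16.7% of the 100-base windows of their transcripts occur in another gene, so their split of reads is uncertain. Between the tumour groups the family's log2 fold changes were -2.02 ± 0.63 for Ifit1, -1.06 ± 0.48 for Ifit2, -2.26 ± 0.62 for Ifit3 and -2.39 ± 0.67 for Ifit3b.

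The OAS enzymes sense double-stranded RNA and make oligoadenylate, which activates RNase L, while OASL1 lacks that activity. All 5 rose from VEH lung to VEH tumour, by log2 fold changes from 1.497 for Oasl2 to 3.72 for Oas3. With single libraries left out, Oasl2 was called in 5 of 12 fits and Oas2 in 7, and the other 3 in all 12. Oas3 read 1.72, 6.48 and 1.01 CPM in VEH lung, 4.42, 3.32 and 2.14 in HDM lung, 72.3, 12.8 and 37.3 in VEH tumours and 17.9, 10.4 and 2.73 in HDM tumours. Its VEH tumours lay above all other groups except that replicate 2 lay inside the HDM tumours' range. Oasl1 read 2.55, 3.398 and 2.19 CPM in VEH lung, 3.19, 5.17 and 3.24 in HDM lung, 29.4, 7.51 and 25.1 in VEH tumours and 8.87, 4.92 and 4.37 in HDM tumours, with replicate 2 again the low VEH tumour. Oas2 read 4.5997, 4.66 and 5.73 CPM in VEH lung, 4.096, 4.53 and 3.83 in HDM lung, 28.97, 11.3 and 22.2 in VEH tumours and 16.3, 2.94 and 3.09 in HDM tumours, and its HDM tumours spread from below lung to the range of the VEH tumours.

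Oas1a read 6.16, 8.62 and 5.39 CPM in VEH lung, 11.7, 14.9 and 4.05 in HDM lung, 57.6, 23.6 and 44.7 in VEH tumours and 19.8, 7.92 and 3.97 in HDM tumours. All VEH tumours lay above all HDM tumours, which overlapped lung. Oasl2, with the highest level per length of the family (9.49 CPM per kb), read 33.1, 70.1 and 33.6 CPM in VEH lung, 40.6, 51.5 and 30.3 in HDM lung, 154, 92.5 and 140.4 in VEH tumours and 52.7, 15.8 and 11.6 in HDM tumours. Its HDM tumours reached from the lung range to well under it, and the log2 fold change between tumour groups, -2.27 ± 0.55, was the largest in size of the family. Of Oas1a's transcript windows 9.54% are shared, mostly with Oas1g.

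The Mx GTPases trap viral nucleocapsids, and viperin, made by Rsad2, turns CTP into an analogue that ends viral RNA chains with the help of the nucleotide kinase CMPK2 encoded beside it. Mx1 read 10.96, 1.38 and 7.34 CPM in VEH tumours and 9.86, 3.96 and 2.27 in HDM tumours, against 1.396, 0.692 and 1.39 in VEH lung and 0.8602, 0.453 and 1.62 in HDM lung. Both tumour groups held values above lung, VEH tumour replicate 2 excepted, and it rose from HDM lung to HDM tumour by 2.45 ± 0.80 (adjusted p = 0.0247). Its difference between the tumour groups, -0.29 ± 0.75, was smaller than its standard error and turned positive when VEH tumour replicate 1 or HDM tumour replicate 3 was left out (0.31 and 0.10). Mx2 was the member with the lowest level per length (0.464 CPM per kb), and its 12 libraries ran from 0.302 to 3.99 CPM with every pair of groups overlapping.

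Rsad2 read 6.74, 8.53 and 5.98 CPM in VEH lung, 9.18, 6.04 and 4.23 in HDM lung, 66.7, 11.4 and 43.5 in VEH tumours and 26.3, 8.402 and 4.79 in HDM tumours. VEH tumours lay above lung in all 3 libraries, and HDM tumour replicate 1 lay above lung as well. Cmpk2, only 12751 bases away on chromosome 12, read 46.7, 13.2 and 33.9 CPM in VEH lung, 20.2, 28.1 and 38.6 in HDM lung, 47.5, 14.3 and 31.1 in VEH tumours and 17.5, 5.02 and 2.67 in HDM tumours. It was not higher in VEH tumours, with a difference from VEH lung of -0.01 ± 0.69 that turned positive with several other settings, while all HDM tumours lay below all HDM lung. The neighbours had unlike values in tumour against lung under VEH, at 2.52 ± 0.71 for Rsad2, and had similar values between tumour groups, -1.62 ± 0.69 for Rsad2 and -1.89 ± 0.71 for Cmpk2; the difference between the 2 genes was not tested.

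Among sensors, RIG-I (Rigi), MDA5 (Ifih1) and LGP2 (Dhx58) detect viral RNA in the cytoplasm, ZBP1 binds left-handed nucleic acid and can start necroptosis, and PKR (Eif2ak2) stops translation when it meets double-stranded RNA. Zbp1 read 3.12, 15.7 and 6.65 CPM in VEH lung, 10.5, 9.14 and 5.78 in HDM lung, 197, 70.9 and 192 in VEH tumours and 37.99, 12.1 and 6.94 in HDM tumours. The VEH tumours lay above all other libraries, and the ratio of group means was 18.03 for VEH tumour over VEH lung and 8.06 for VEH tumour over HDM tumour. These were the largest log2 fold changes of any member in both comparisons, 4.17 ± 0.78 and -3.01 ± 0.74, although the second did not pass the adjusted test.

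Eif2ak2 kept a tumour level under both treatments. It read 76.4, 27.4 and 69.3 CPM in VEH tumours and 49.3, 43.96 and 47.5 in HDM tumours, against 14.5, 22.8 and 17.5 in VEH lung and 16.5, 23.5 and 18.6 in HDM lung. All 3 HDM tumours lay above all lung libraries, and their spread was the narrower of the 2 tumour groups. It rose from lung to tumour by 1.66 ± 0.33 under VEH (adjusted p = 0.00365) and by 1.26 ± 0.33 under HDM (adjusted p = 0.0085), with -0.30 ± 0.32 between the tumour groups.

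Ifih1 was 1 of 2 members whose VEH tumours were not higher than VEH lung in mean. It read 31.4, 14.9 and 27.5 CPM in VEH tumours and 18.1, 9.43 and 5.97 in HDM tumours, against 27.2, 27.1 and 44.9 in VEH lung and 31.5, 47.6 and 31.6 in HDM lung. The VEH tumours overlapped lung, and every HDM tumour lay below every lung library. It fell from HDM lung to HDM tumour by 1.73 ± 0.42 (adjusted p = 0.00635). Dhx58 read 4.68, 7.11 and 4.46 CPM in VEH lung, 5.49, 7.702 and 3.87 in HDM lung, 47.3, 11.9 and 28.1 in VEH tumours and 13.1, 8.47 and 4.82 in HDM tumours, high in the VEH tumours with replicate 2 inside the HDM range. Rigi, at 108, 34.6 and 87.8 CPM in VEH tumours and 47.97, 25.4 and 26.7 in HDM tumours against 30.4 to 56.3 CPM in lung, and Ddx60, at 8.54, 5.62 and 12.5 CPM in VEH tumours and 7.105, 2.32 and 2.67 in HDM tumours against 2.38 to 5.69, overlapped in each of the 3 comparisons made here that involve a tumour (VEH tumour with VEH lung, HDM tumour with HDM lung, and the tumour groups with each other).

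Tetherin (Bst2) holds budding virus at the cell surface, IFITM3 blocks fusion in endosomes, and RTP4 is a chaperone that also binds flavivirus replication complexes. Ifitm3 was the most abundant member per length (587 CPM per kb) of all 42. It read 346, 411 and 364 CPM in VEH lung, 268, 268 and 274 in HDM lung, 652, 568 and 643 in VEH tumours and 327, 373 and 285 in HDM tumours. VEH tumours lay above every other library and HDM lung below every other library, while HDM tumours and VEH lung overlapped. It rose from VEH lung to VEH tumour by 0.73 ± 0.14 (adjusted p = 0.00254) and fell from VEH to HDM tumour by 0.92 ± 0.14 (adjusted p = 0.0446).

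Bst2, next in level per length (154 CPM per kb), read 401, 196 and 281 CPM in VEH tumours and 108, 67.04 and 49.3 in HDM tumours, against 131, 63.4 and 134 in VEH lung and 68.1, 73.7 and 95.1 in HDM lung. The VEH tumours lay above all lung libraries and all HDM tumours, and the HDM tumours overlapped lung. Rtp4 read 62.3, 28.9 and 60.9 CPM in VEH tumours and 16.3, 11.3 and 3.24 in HDM tumours, against 20.8, 16.6 and 24.3 in VEH lung and 13.5, 18.2 and 19.8 in HDM lung, with HDM tumour replicate 3 far below the rest. For all 3 membrane-group members the tumour groups did not overlap, at log2 fold changes of -1.97 ± 0.38 for Bst2 and -2.30 ± 0.50 for Rtp4.

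PARP9 and DTX3L form a complex that modifies histones and ubiquitin, and PARP14 is a neighbouring ADP-ribosyltransferase. The 3 genes lie together on chromosome 16 from 35653231 to 35792980 (GRCm39), with Parp9 and Dtx3l overlapping on opposite strands. Parp9 read 30.6, 41.4 and 29.8 CPM in VEH lung, 35.2, 37.5 and 30.5 in HDM lung, 123, 48.5 and 95.5 in VEH tumours and 43.7, 41.2 and 24.5 in HDM tumours. VEH tumours lay above all other libraries, and HDM tumours overlapped lung. Dtx3l and Parp14 had tumour values of 90.2, 45.6 and 79.2 CPM in VEH tumours and 42.5, 36.7 and 21.1 in HDM tumours and 129, 59.7 and 120.3 CPM in VEH tumours and 65.6, 45.2 and 26.8 in HDM tumours. The 3 log2 fold changes between the tumour groups lay close together, at -1.28 ± 0.32, -1.10 ± 0.34 and -1.17 ± 0.34.

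The SP proteins build or read nuclear bodies and chromatin marks, and Sp100 is a restriction factor against DNA viruses. Their genes are neighbours on chromosome 1, from 85498456 to 85637719 (GRCm39). Sp110 read 19.1, 25.4 and 22.7 CPM in VEH lung, 25.2, 22.8 and 28.9 in HDM lung, 40.1, 25.6 and 31.8 in VEH tumours and 13.9, 10.998 and 9.34 in HDM tumours. All VEH tumours lay above VEH lung and all HDM tumours below every lung library. It fell by 1.51 ± 0.22 between the tumour groups (adjusted p = 0.0446) and by 1.17 ± 0.22 from HDM lung to HDM tumour (adjusted p = 0.00158).

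Sp100 read 54.9, 47.8 and 58.6 CPM in VEH lung, 55.6, 50.6 and 55.5 in HDM lung, 82.5, 45.3 and 56.3 in VEH tumours and 36.5, 22.4 and 18.4 in HDM tumours. VEH tumours overlapped lung, HDM tumours lay below every lung library, and it fell from HDM lung to HDM tumour by 1.06 ± 0.27 (adjusted p = 0.00696). Sp140, the bromodomain member expressed in leukocytes, ran from 6.98 to 20.1 CPM over lung, with 31.7, 20.1 and 22.7 CPM in VEH tumours and 12.2, 9.43 and 6.88 in HDM tumours. From VEH lung to VEH tumour, 0 of the 3 passed edgeR's adjusted test, where 18.2% of all genes rose and 20.6% fell. With 3 genes, that count cannot be set apart from those shares. An unadjusted p below 0.05 was found for 2, and the share of all genes with one was not counted. Of the 100-base windows of their transcripts, 15.6% of Sp110's and 23.4% of Sp140's occur in another gene, so reads of both could be split.

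The other 9 members include adaptors, apoptosis factors and secreted proteins. NMI is a partner of IFI35. Nmi read 34.8, 34.4 and 33.6 CPM in VEH tumours and 13.8, 15.6 and 11.9 in HDM tumours, against 21.5, 17.8 and 27.03 in VEH lung and 15.9, 18.1 and 19.996 in HDM lung. The 3 VEH tumours lay within 33.6 to 34.8 CPM, above every lung library, and the 3 HDM tumours lay below every lung library. It rose from VEH lung to VEH tumour by 0.63 ± 0.19 (adjusted p = 0.0217) and fell from VEH to HDM tumour by 1.31 ± 0.19 (adjusted p = 0.0446).

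Ifi44, a cytoplasmic protein induced in infected cells, read 5.996, 4.91 and 8.17 CPM in VEH lung, 6.14, 7.55 and 5.34 in HDM lung, 79.8, 21.7 and 59.7 in VEH tumours and 19.4, 7.24 and 3.58 in HDM tumours. VEH tumours stood clear of all other libraries. Lgals3bp, a secreted galectin-3 ligand with a high level per length (80.6 CPM per kb), read 165, 177 and 131 CPM in VEH lung, 193, 300.4 and 118 in HDM lung, 476, 332 and 452 in VEH tumours and 178, 149 and 79.9 in HDM tumours, with HDM tumour replicate 3 lowest. Samd9l, an inhibitor of translation, read 36.6, 35.4 and 43.9 CPM in VEH lung, 30.7, 46.8 and 56.6 in HDM lung, 83.4, 45.3 and 71.9 in VEH tumours and 59.9, 49.7 and 36.8 in HDM tumours, and its tumour groups overlapped.

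The other 5 of this group are given by their tumour values. Xaf1, a pro-apoptotic factor, had 33.4, 15.5 and 30.96 CPM in VEH tumours and 11.1, 7.62 and 3.09 in HDM tumours, and Phf11d had 57.4, 17.2 and 29.9 CPM in VEH tumours and 14.6, 7.002 and 3.28 in HDM tumours. Epsti1 had 32.4, 14.4 and 23.1 CPM in VEH tumours and 12.1, 13.4 and 6.98 in HDM tumours, and Ifi35, the partner of NMI, had 76.6, 45.96 and 41.8 CPM in VEH tumours and 27.8, 26.7 and 23.8 in HDM tumours. These 4 had tumour groups that did not overlap, while Trim30a, at 69.04, 16.8 and 47.7 CPM in VEH tumours and 36.1, 17.9 and 10.3 in HDM tumours, did overlap. Exons of Ifi35 overlap those of Vat1, which holds 874% as many counts, and the labels give a stranded library kit but not whether the counting used strand.

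The tumours were next compared with lung under each treatment, using the same VEH tumour and HDM tumour libraries as above. Under VEH, 23 of the 42 members rose from lung to tumour and 0 fell in edgeR's test, where 18.2% of all genes rose and 20.6% fell. All 3 tumours lay above all 3 lung libraries for 26 members and below for 0, against 23.9% and 28.5% of all genes, and 40 members had a positive log2 fold change, against 46.4% of all genes. The median was 1.28 over the members and -0.11 over all genes. Without the 4 libraries of mixed prefixes 10 members were called, where 25% of all genes were called in either direction, at a median of 1.31. Without normal VEH replicate 1 15 members were called, where 27.1% of all genes were, at a median of 1.09.

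Under HDM the members stood near the background of all genes in sign and median. Of the 42, 2 rose (Mx1 and Eif2ak2) and 4 fell (Ube2l6, Ifih1, Sp100 and Sp110), where 23% of all genes rose and 28.9% fell. All 3 tumours lay above all 3 lung libraries for 5 members and below for 10, against 29.6% and 33.5% of all genes. Positive log2 fold changes were found for 19 members and negative ones for 23, against 47.7% and 52.3% of all genes, with a median of -0.13 against -0.08 over all genes. Without the 4 libraries of mixed prefixes 1 member was called, where 37.9% of all genes were called in either direction. Without HDM tumour replicate 1, the highest of its group for most members, 12 members were called, where 44.9% of all genes were. The median changed sign when scaled by library size only (0.05), without HDM tumour replicate 2 (0.04) or without HDM tumour replicate 3 (0.24).

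**Figure D3:**
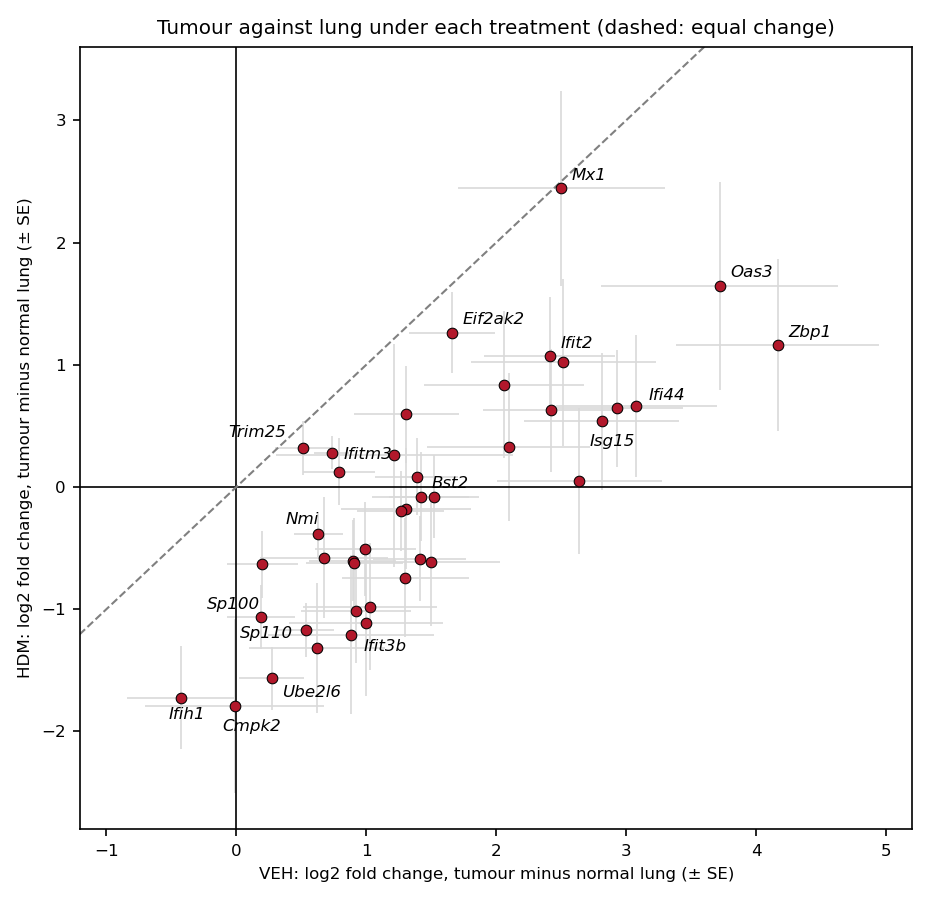
Each of the 42 points is 1 gene, with its log2 fold change from lung to tumour under VEH on the x axis and under HDM on the y axis, and bars of 1 standard error. The dashed line marks equal change under both treatments, and all points lie below it, with Mx1, Trim25 and Eif2ak2 nearest.

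Arranged by group separation, 13 members, against 1.25% of all genes, had VEH tumours above VEH lung and above HDM tumours with HDM tumours overlapping HDM lung: Isg15, Ifit1, Oas1a, Oasl2, Zbp1, Bst2, Rtp4, Parp9, Dtx3l, Sp140, Ifi44, Lgals3bp and Epsti1. In 3 members, Ifit3, Sp110 and Nmi, tumours lay above lung under VEH and below lung under HDM, against 0.306% of all genes. For 5 members, Usp18, Ube2l6, Sp100, Xaf1 and Ifi35, the VEH tumours overlapped VEH lung and the HDM tumours lay below both HDM lung and VEH tumours, against 2.56% of all genes. In all, 4 members, Trim25, Ifit2, Mx1 and Eif2ak2, had every HDM tumour above all 6 lung libraries, and 9 had every HDM tumour below all 6, against 24.6% and 28.6% of all genes.

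The difference between these 2 contrasts was itself fitted as an interaction (the tumour effect under HDM minus that under VEH). It was negative for all 42 members, against 51.7% of all genes, with a median of -1.52 over the members and -0.02 over all genes and a range from -3.004 for Zbp1 to -0.05 for Mx1. By edgeR's adjusted test 0 of the 42 passed, where 0% of all genes did, 27 members had an unadjusted p below 0.05, all of them negative, against 6.06% of all genes, and DESeq2's Wald test called 4, against 0.987% of all genes. The comparison shares its libraries with those above, so its sign is not a further observation.

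In normal lung no member passed the adjusted test between HDM and VEH. In edgeR's test 0 of the 42 members passed, where 0% of all genes did, 1 member (Ifitm3) had an unadjusted p below 0.05, lower under HDM, against 3.62% of all genes, and DESeq2's Wald test called 0, against 0.171% of all genes. The log2 fold changes, HDM lung minus VEH lung, ran from -0.47 for Ifitm3 to 0.60 for Oas1a, with 21 above 0 and 21 below, where 48.4% of all genes were above. The median was 0.0004 over the members and -0.01 over all genes. The groups did not overlap for Ifit2, higher under HDM, and for Oas2 and Ifitm3, lower under HDM, against 4.47% and 5.85% of all genes. Standard errors of the members in this comparison ran from 0.13 to 0.91, and changes of several standard errors could still fail the adjusted test.

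Members moved by library as well as by group. VEH tumour replicate 1 was the highest of the 6 tumours for 40 of 42 members, against 13.3% of all genes, and replicate 3 for the other 2, and replicate 1 exceeded replicate 2 for all 42. HDM tumour replicate 3 was the lowest tumour for 35 members, against 21.2% of all genes, and the order of HDM tumour replicates 1, 2, 3 from high to low held for 34. VEH tumour replicate 2 lay above HDM tumour replicate 1 for 24 of 42 members, so the highest HDM tumour and the lowest VEH tumour are where the groups meet. The median coefficient of variation over the members was 21.96% in VEH lung, 19.0% in HDM lung, 41.5% in VEH tumours and 51.1% in HDM tumours. HDM tumour replicate 1 lay above all 6 lung libraries for 20 members and below all 6 for 9, whereas replicate 3 lay above for 4 and below for 27. The share of all genes was not counted for single libraries. For all HDM tumours together it was 24.6% above and 28.6% below, so these counts only describe the libraries.

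Beside the members stand the other genes of the pathway. Of 11 interferon ligand genes, 10 did not pass the count filter. Ifna1, Ifna2, Ifna4, Ifnl2 and Ifnl3 had 0 counts in all libraries, which allows up to 0.0910 to 0.138 CPM in a library by counting error alone. Ifnb1 had 4 counts in all, in VEH tumour replicate 1 only. Ifng, the IFN-gamma gene, had 61 counts in all and read 0.552, 0.0744 and 1.1996 CPM in VEH tumours and 0, 0.546 and 0 in HDM tumours. In lung it had 0 to 2 counts a library. Its VEH tumours lay above VEH lung, without passing the adjusted test (log2 fold change 5.11 ± 1.94, adjusted p = 0.057), and the tumour groups overlapped. VEH tumour replicate 2, at 0.0744 CPM, lay under that library's floor for 0 counts, 0.112 CPM. Its separation from VEH lung is therefore within counting error.

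Receptors and kinases changed in both directions from VEH lung to VEH tumour. Of 9 genes, 2 rose from VEH lung to VEH tumour, Ifnar1 (0.49 ± 0.17) and Jak1 (0.74 ± 0.17), where 18.2% of all genes rose. A fall was called for 2, Ifnar2 (-0.58 ± 0.20) and Ifnlr1 (-2.42 ± 0.76), the epithelial receptor of type III interferon, where 20.6% of all genes fell. Between the tumour groups edgeR called 0 of the 9, where 0.0856% of all genes fell and 0.00901% rose. An unadjusted p below 0.05 was found for 0, where 11.3% of all genes had one and were lower. With 9 genes, these counts lie near those shares. The median log2 fold change was -0.19.

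The transcription factors of the response went with the members. Of 7, Stat2, Irf9, Irf7 and Irf5 rose from VEH lung to VEH tumour, where 18.2% of all genes rose. The largest rise was that of Irf7, which amplifies type I interferon production. Irf7 read 182, 105 and 127 CPM in VEH tumours and 48.6, 30.7 and 11.6 in HDM tumours, against 7.72, 22.2 and 14.7 in VEH lung and 17.1, 26.01 and 14.99 in HDM lung. The VEH tumours lay above all other libraries. Between the tumour groups 7 of 7 had negative log2 fold changes, against 52.7% of all genes, with a median of -1.34. The groups did not overlap for 5, against 10.7% of all genes that were lower without overlap. Unadjusted p was below 0.05 for 5, against 11.3% of all genes that were lower, and edgeR's adjusted test called 0, where 0.0856% of all genes fell.

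Genes known best as targets of IFN-gamma had lower values in HDM than in VEH tumours. Of 15, 9 rose from VEH lung to VEH tumour, where 18.2% of all genes rose. Between the tumour groups 2 fell (Psmb8 and Psmb9, subunits of the immunoproteasome), against 0.0856% of all genes. All 15 had non-overlapping lower values, against 10.7% of all genes, and the median was -2.29. Cxcl9, a chemokine that draws T cells, read 165, 116 and 116 CPM in VEH tumours and 9.61, 21.6 and 2.15 in HDM tumours, against 0.0821, 3.71 and 0.674 in VEH lung and 0.778, 0.604 and 1.69 in HDM lung. VEH tumours and HDM tumour replicates 1 and 2 lay above all lung libraries, and every VEH tumour lay above every HDM tumour. Of 10 adaptors and kinases of the sensing pathways, Sting1 and Tlr9 rose from VEH lung to VEH tumour, where 18.2% of all genes rose. Between the tumour groups edgeR called 0 of the 10, where 0.0856% of all genes fell and 0.00901% rose. An unadjusted p below 0.05 was found for 1, where 11.3% of all genes had one and were lower. With 10 genes, these counts lie near those shares.

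**Figure D4:**
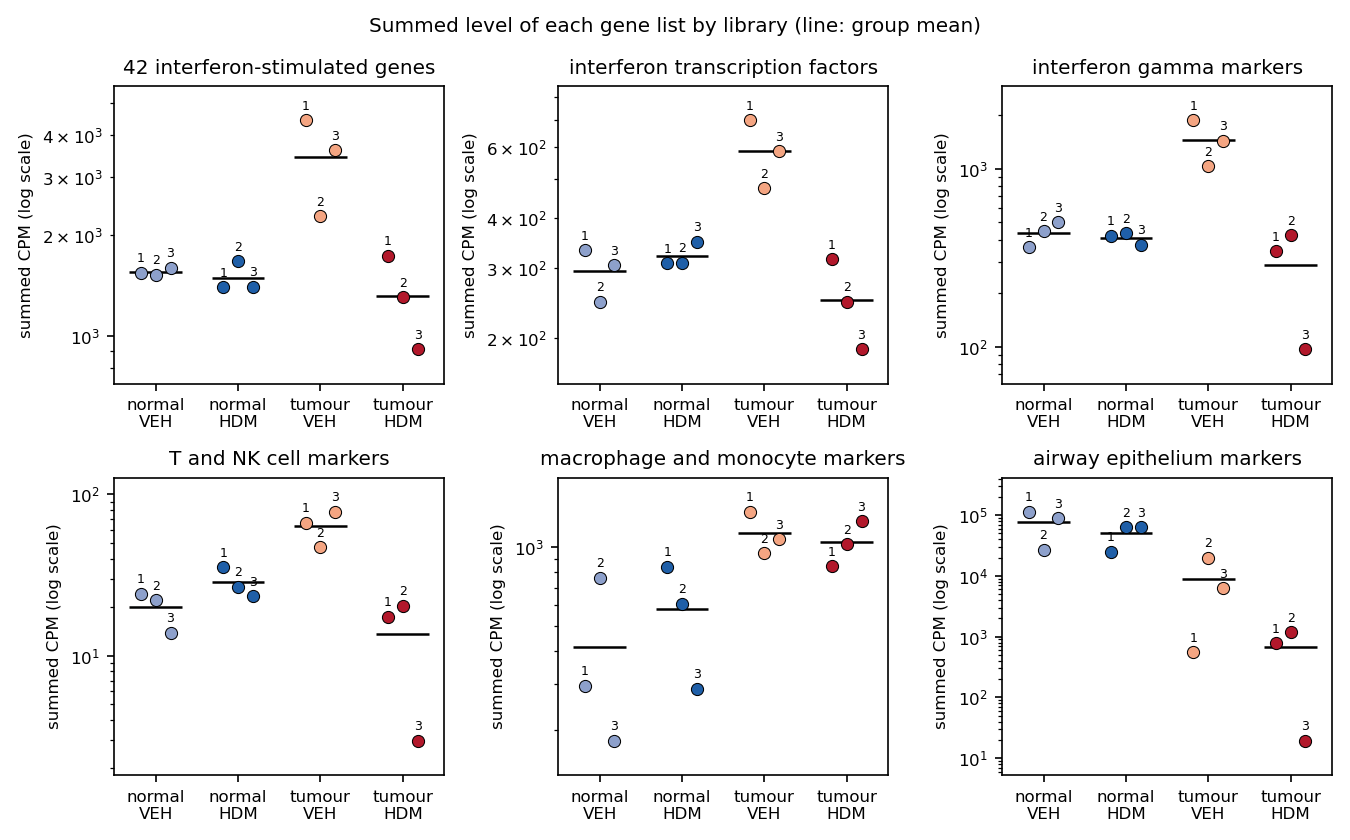
Summed CPM of 6 gene lists in each library on log axes, numbered by replicate, with a line at the group mean. The upper panels show the 42 members, 7 interferon transcription factors and 15 IFN-gamma markers, all highest in VEH tumours; the lower panels show T and NK cell, macrophage and airway epithelium markers.

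Cell type markers moved with the members in part. The summed level of 9 T and NK cell markers was 47.2 to 78.0 CPM in VEH tumours and 2.97 to 20.5 in HDM tumours. It was 13.9 to 24.3 CPM in VEH lung and 23.5 to 35.5 in HDM lung. Of the 9, 7 were lower in HDM tumours without overlap, against 10.7% of all genes. None of the 9 markers was at 0 in any tumour. Their part in the members' difference was not tested. Macrophage and monocyte markers (8 genes) ran from 948 to 1364 CPM in VEH tumours and 847 to 1256 in HDM tumours, and 5 leukocyte markers from 415 to 756 and 322 to 512, so these overlapped. Plasmacytoid dendritic cell markers, of the cell type known for strong interferon production, summed to 3.87 to 9.45 CPM in VEH tumours and 1.15 to 3.45 in HDM tumours, with Klk1 and Ly6d at 0 in HDM tumour replicate 3, against 12.3 to 35.8 in lung.

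Summed markers of lung tissue were lower in HDM tumours without overlap for the endothelial list, and the sums of the epithelial lists overlapped between the tumour groups. Endothelial markers (6 genes) summed to 273 to 473 CPM in VEH tumours, 88.9 to 252 in HDM tumours and 1450 to 3006 in lung. Alveolar markers summed to 2245 to 8465 CPM in VEH tumours and 108 to 2473 in HDM tumours. All 7 had negative log2 fold changes between the tumour groups, against 52.7% of all genes, with a median of -1.42. Of the 7, 0 were called, where 0.0856% of all genes fell. Likewise 0 were separated, where 10.7% of all genes were lower without overlap. With 7 genes, these 2 counts lie near those shares. Airway epithelium markers (6 genes) summed to 557 to 20025 CPM in VEH tumours and 19.3 to 1187 in HDM tumours, with Muc5b at 0 in HDM tumour replicate 3. All 6 had negative log2 fold changes between the tumour groups, against 52.7% of all genes, with a median of -3.79. Unadjusted p was below 0.05 for 5, against 11.3% of all genes that were lower. Only 1 did not overlap, against 10.7% of all genes, and edgeR's adjusted test called 0, where 0.0856% of all genes fell. VEH tumour replicate 1, where the members were highest, had the lowest airway sum of its group, and replicate 2, where they were lowest, had the highest. The HDM tumours did not have this order. Their airway sums were 781, 1187 and 19.3 CPM in replicates 1, 2 and 3, and replicate 3 also had the lowest member sum (911 CPM). The part of lung tissue in the members' values was not tested.

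Position and promoter letters were set beside the response. Of the 42 members, 18 have another member within 100 kb, in 7 clusters. Members with the ISRE core in their window (13) had a median log2 fold change of 1.42 from VEH lung to VEH tumour and -1.97 between the tumour groups, and the 19 searched members without it had 0.92 and -1.38; their ranges overlapped throughout and the difference was not tested. In all, 16 members overlap a tested gene on the opposite strand, such as Isg15 (Gm46878, with 82.9% as many counts) and Ifitm3 (Gm57251, 22.8%), and 8 share over 5% of their transcript windows with another gene, so reads of those members could have been assigned differently.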

How the data were processed

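Gene-level counts were deposited by the authors as 1 table of 12 columns with gene lengths. The submitters' processing notes name Trim Galore, STAR, featureCounts and Subread and the build mm39; versions, annotation and the strand setting are not given in the sources used here. Symbols came from GENCODE M39, which held 78168 of the 78298 identifiers. Counts were fitted with edgeR 4.0.16 (R 4.3.3): filterByExpr with a minimum count of 10, TMM scaling, 4 group means over all 12 libraries, robust quasi-likelihood tests and Benjamini-Hochberg adjustment over 22190 genes at 0.05. Standard errors of log2 fold changes were derived from the F statistic. The script was tested on simulated data. No block was used, since 2 of the 6 prefixes join libraries of different treatment labels and no pairing is stated. Deviations from the group mean correlated at -0.42 to 0.37 between samples with the same replicate number. Between those with the same prefix they correlated at -0.26 to 0.23. With 3 libraries a group these values cannot decide whether samples were paired. Floors for 0 counts are 3 counts and cover counting error only. The members and all gene lists were chosen with earlier results of these data known. In full detail are given, per functional group, the member with the largest change between the tumour groups, the one with the highest level per length, members past the adjusted test there and members whose sign differs from most. One further gene of the transcription factor list is not reported here.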

Additional observations from a re-analysis of the deposited data

How the results depend on the processing

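The median over the members kept its sign in all settings run between the tumour groups, for VEH tumour minus VEH lung and for the interaction, but not for HDM tumour minus HDM lung (-0.50 to 0.24 with single libraries left out) or between the lung groups (-0.06 to 0.06, likewise). Between the tumour groups, where 4 members were called, library-size scaling alone left 1, a fit of only the groups compared left 0, DESeq2's Wald test gave 26 (1308 of all genes against 21), and leaving out single libraries gave 0 to 4. For HDM tumour minus HDM lung 6 were called, where 11512 of all 22190 genes were. A minimum of 10 counts in every library gave 11, where 7900 of 15292 genes were called. The DESeq2 Wald test gave 11, where 12409 of 22190 genes were called. Leaving out single libraries gave 5 to 12, where 9822 to 11801 of all genes were called. For VEH tumour minus VEH lung 23 were called, where 8624 of all 22190 genes were. Leaving out single libraries gave 15 to 30, where 5733 to 9070 of all genes were called. For the interaction DESeq2's Wald test called 4 against 0 (219 of all genes against 0), and its median ran from -2.09 without HDM tumour replicate 1 to -1.28. Without the 4 libraries of mixed prefixes 0 members were called between tumours, 1 from HDM lung to HDM tumour and 10 from VEH lung to VEH tumour. Library-size scaling moved the median of all genes from -0.11 to 0.03 for VEH and from -0.08 to 0.10 for HDM tumour against lung. The cause of these shifts was not tested.

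With the replicate number as a block, or the prefix as a block, 0 members were called between the tumour groups, against 1 and 0 of all genes. From VEH lung to VEH tumour 20 and 16 were called, against 7830 and 5783 of all 22190 genes. Same-numbered samples share only a number here. In VEH tumour minus VEH lung, Cmpk2 turned positive with library-size scaling (0.14), no low-count filter (0.0293), only the groups compared (0.0047) and single libraries left out (-0.38 to 0.40), and Ifi35 turned to -0.013 without VEH tumour replicate 1, its range being -0.013 to 0.46. Between the tumour groups Mx1 was 0.85 with the prefix block and -1.07 to 0.31 with single libraries left out, and Trim25 was 9e-04 with library-size scaling and -0.33 to 0.13 with single libraries left out. Of all single-member values under the alternatives, 790 between tumours and 770 for VEH kept their direction and side of the threshold, 23 and 33 gained a call, 62 and 66 lost one, and 6 and 12 changed sign. With 3 libraries a group, small differences could not be seen.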
